A study of Mus musculus with 8 samples.

Results

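NF-YA binding was examined at peaks that lie near a protein-coding gene but outside the immediate surroundings of its start. The rule for the members uses the deposited annotation alone, though it was set with earlier results of these data known. It takes peaks with the gene biotype protein_coding and a distance of more than 1000 bases between the peak centre and the start of the assigned gene. Since the table assigns a gene up to about 10000 bases away, their distances ranged from 1002 to 10138 bases, with a median of 4330. The rule gave 1251 of 7196 peaks (17.4%, 95% Wilson interval 16.5% to 18.3%), or 32.6% of the 3837 peaks with an assigned coding gene. They belonged to 1083 gene IDs, of which 939 had a single member, 121 had 2 and 23 had 3 or more. The 2586 coding-gene peaks within 1000 bases of their start served for comparison and are called near-start peaks.

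The peaks come from CUT&RUN, in which a nuclease tethered to an antibody releases the DNA around the bound protein, in cultured, activated muscle stem cells (MuSCs) of C57BL/6 mice. NF-YA was profiled in 2 libraries of control cells and in 2 libraries of Taf4asKO cells, and the 4 IgG libraries of the series were not analysed here. Taf4asKO cells derive from animals with the tamoxifen-inducible Cre of Pax7CreERT, which acts in cells that express *Pax7*, and 2 *Taf4a* alleles with floxed exons 11 and 12, after tamoxifen treatment; *Taf4a* is listed as *Taf4* in the table. Per the study, controls were littermates with the same floxed alleles, with or without Pax7CreERT. The control libraries are titled WT, however, and the study's CUT&RUN methods call such cells wild type. Plain wild type C57BL/6 mice are also among the strains it lists. Some animals of both groups carried the Pax7 zsGreen reporter, and tamoxifen was given at 8 to 20 weeks of age. Beyond WT, the labels do not say which of these backgrounds a control library had, or whether 2 libraries of a genotype came from separate animals. The p-values therefore measure only the spread between these libraries.

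NF-YA is the part of the trimer NF-Y that reads the DNA sequence. NF-Y binds the CCAAT box and is best known at promoters, where CCAAT boxes often lie a short distance upstream of the start. NF-YB and NF-YC, the other subunits, form a histone-like dimer. TAF4A is a subunit of TFIID, the general factor that recognises core promoters. A peak away from the assigned start can lie at a second promoter of the gene, at a promoter of a neighbour or noncoding RNA, or at a distal element. Distal elements in many cells carry sites for AP-1 (dimers of FOS and JUN proteins, TGANTCA), and in muscle cells they often carry E-boxes of the form CAGCTG, which MYOD1 and related factors bind.

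The following sequences show what the centres of these peaks look like. They are the plus strand of GRCm38 (mm10) from RefSeq, read 5′ to 3′, and capitals mark CCAAT or its reverse complement, TGANTCA and CAGCTG. The first 2 are among the strongest members and were chosen for their CCAAT boxes. The *Sin3a* peak holds 4 CCAAT boxes in 200 bases, all in the same direction.
*Sin3a*, chr9:57075972-57076171: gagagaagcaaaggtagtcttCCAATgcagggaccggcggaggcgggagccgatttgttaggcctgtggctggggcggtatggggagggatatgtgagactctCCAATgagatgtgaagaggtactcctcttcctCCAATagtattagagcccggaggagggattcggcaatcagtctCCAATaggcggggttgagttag
*Sp2*, chr11:96977818-96978017: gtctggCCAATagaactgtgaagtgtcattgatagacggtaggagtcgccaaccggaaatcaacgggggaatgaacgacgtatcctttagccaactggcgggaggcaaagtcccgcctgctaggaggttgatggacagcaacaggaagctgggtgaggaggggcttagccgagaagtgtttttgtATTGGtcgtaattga

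The next sequences belong to 5 of the 6 members called between genotypes, as described further below, of which *Ccne1* was added after its values were seen. The *Hdac2* peak was higher in Taf4asKO and the others were lower. Only the central 60 bases of the *Taf4* peak are shown because it is 79 bases wide, and this stretch of a coding exon contains none of the searched motifs marked here. The full searched window of this peak does hold an E-box.
*Hdac2*, chr10:36965773-36965972: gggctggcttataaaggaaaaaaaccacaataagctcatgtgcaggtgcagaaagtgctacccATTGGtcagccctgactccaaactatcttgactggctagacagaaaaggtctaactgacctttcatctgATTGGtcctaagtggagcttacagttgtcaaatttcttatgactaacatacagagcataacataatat
*Taf4*, chr2:179975427-179975486: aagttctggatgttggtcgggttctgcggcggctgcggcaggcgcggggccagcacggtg
*Mycl*, chr4:122998635-122998834: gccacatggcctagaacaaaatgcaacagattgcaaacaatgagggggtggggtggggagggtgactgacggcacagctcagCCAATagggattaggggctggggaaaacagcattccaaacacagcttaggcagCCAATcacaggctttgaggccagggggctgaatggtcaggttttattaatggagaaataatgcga
*Mfng*, chr15:78763680-78763879: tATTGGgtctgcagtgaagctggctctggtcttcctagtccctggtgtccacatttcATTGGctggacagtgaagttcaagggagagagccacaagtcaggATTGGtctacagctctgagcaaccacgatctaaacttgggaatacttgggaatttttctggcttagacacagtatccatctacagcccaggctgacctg
*Ccne1*, chr7:38112217-38112416: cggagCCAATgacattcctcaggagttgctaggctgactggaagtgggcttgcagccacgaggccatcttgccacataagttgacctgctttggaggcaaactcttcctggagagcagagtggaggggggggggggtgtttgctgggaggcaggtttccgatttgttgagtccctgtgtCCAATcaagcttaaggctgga

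The last 4 were likewise chosen after their values were seen, to show members with an AP-1 motif beside CCAAT boxes (*Mef2d*, *Lmna*) and members at muscle genes (*Myod1*, *Mymk*), the last of which has 2 E-boxes next to its CCAAT boxes.
*Mef2d*, chr3:88140275-88140474: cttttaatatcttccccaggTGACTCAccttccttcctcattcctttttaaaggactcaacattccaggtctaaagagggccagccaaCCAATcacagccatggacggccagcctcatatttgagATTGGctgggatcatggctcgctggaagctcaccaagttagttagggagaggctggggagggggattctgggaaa
*Lmna*, chr3:88503608-88503807: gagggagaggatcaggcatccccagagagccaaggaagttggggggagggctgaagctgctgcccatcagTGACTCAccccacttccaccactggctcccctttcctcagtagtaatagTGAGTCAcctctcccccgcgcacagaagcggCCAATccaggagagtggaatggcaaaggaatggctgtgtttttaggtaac
*Myod1*, chr7:46380615-46380814: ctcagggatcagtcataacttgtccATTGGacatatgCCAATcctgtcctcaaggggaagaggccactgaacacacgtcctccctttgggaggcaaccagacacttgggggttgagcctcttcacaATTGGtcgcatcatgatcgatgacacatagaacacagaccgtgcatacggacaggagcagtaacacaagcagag
*Mymk*, chr2:27069783-27069982: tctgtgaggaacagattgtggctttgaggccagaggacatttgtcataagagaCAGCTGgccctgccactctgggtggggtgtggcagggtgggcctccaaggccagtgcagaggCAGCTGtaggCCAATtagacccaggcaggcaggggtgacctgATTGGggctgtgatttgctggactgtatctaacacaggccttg

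Many members were not far from every start. Within 1000 bases of the centre of 343 members (27.4%, Wilson interval 25% to 30%) GENCODE M21 annotates another transcript start than the one the table used. In 243 members (19.4%) this was a further start of the assigned gene itself, in 42 (3.36%) a start of another coding gene, and in 58 (4.64%) only the start of a noncoding gene. The remaining 908 members had no annotated start within 1000 bases, and of these 444 (48.9%, 45.7% to 52.1%) were intronic, 389 (42.8%, 39.7% to 46.1%) intergenic, 42 in UTRs and 33 in other exons. Below, the first set is called members at another start and the second members away from starts.

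Members at another start were more frequent downstream of the assigned start than upstream. Of all members 519 (41.5%) lay upstream of the assigned start and 732 (58.5%) downstream, 664 of them inside the assigned gene. Between 1000 and 2000 bases downstream, 103 of 174 members were at another start, whereas at the same distance upstream it was 17 of 102. In 178 members (14.2%) the centre lay inside some other gene and not inside the assigned one, so that the assigned gene is the nearest start and no statement about the regulated gene. The members next to the limit of the rule were peaks 1002 bases from the *Tmem120a* start (values of 16 and 13 in control, 16 and 15 in Taf4asKO) and 1004 bases from the *Gamt* start (6 and 7, 7 and 8), and the first peaks excluded by it lay 1000 bases from the *Rasa3* start (14 and 20, 18 and 12) and 995 bases from the *Bahd1* start (58 and 72, 47 and 59).

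**Figure D1:**
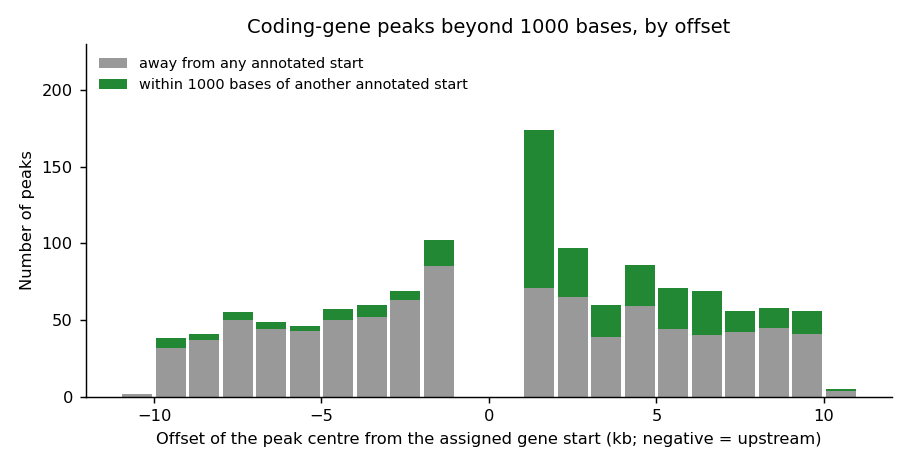
Number of members per 1000 bases of offset between the peak centre and the assigned gene start (horizontal axis, kb, negative is upstream); green marks members within 1000 bases of another annotated start and grey the others. The green share is highest just downstream, with 103 of 174 peaks between 1 and 2 kb.

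Signal is given as normalised read count, the reads in a peak after DESeq2 normalisation by the authors, rounded to whole numbers. The libraries held about 351696 and 111267 reads in peaks in control replicates 1 and 2, and about 734552 and 505241 in Taf4asKO replicates 1 and 2, so that genotype and the number of reads in peaks cannot be told apart. The median member rested on about 12.45, 3.99, 32.44 and 20.56 reads in these libraries. Of the members, 103 were at 0 in control replicate 2, which had the fewest reads in peaks, but 1 was in Taf4asKO replicate 1. Over the members the log2(value + 1) of both control libraries gave a Pearson's r of 0.852 and that of both Taf4asKO libraries 0.955, a description over peaks, which are not replicates.

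Members bound less NF-YA than near-start peaks in every library. The median member reached 13 in either control library and 14 in either Taf4asKO library. The median near-start peak had 56 and 52 in control versus 51 and 59 in Taf4asKO. On the log2(value + 1) scale the difference of the medians was 2.03, 1.92, 1.79 and 2.00 in the 4 libraries, with a mean of 1.93 ± 0.10 (SD, n = 4), and an exact two-sided sign-flip permutation test over the libraries gave p = 0.125, the smallest p that 4 libraries allow. Members made up 11.2% to 12.0% of all signal in peaks, against 66.6% to 69.7% for near-start peaks. They were also narrower, with a median width of 159 bases against 224.5.

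The signal of members depended on whether another start was near. Members at another start had medians of 26, 23, 24 and 25 in control replicates 1 and 2 and Taf4asKO replicates 1 and 2. Members away from starts had 10, 10, 12 and 12 in the same order, close to the 8, 10, 10 and 10 of the 2480 peaks with no assigned gene. The difference between the first 2 sets was 1.09 ± 0.16 (SD, n = 4) on the log2 scale and positive in 4 of 4 libraries (exact sign-flip permutation, p = 0.125, the smallest possible). Among the members away from starts the signal was lower further out, with medians of 13 to 15 over the libraries at 1000 to 2000 bases and of 9 to 12 beyond. The gap between near-start peaks and all members was 1.97 in control and 1.90 in Taf4asKO, with overlapping libraries (exact permutation of 2 against 2 libraries, p = 0.667, where the smallest possible p is 0.333). The gap between members at another start and members away from starts was 1.30 and 1.13 in control and 0.94 and 1.00 in Taf4asKO, and that between near-start peaks and members away from starts 2.37 and 2.27 against 2.00 and 2.21. The genotypes did not overlap in these latter gaps, and the exact permutation test gave the smallest possible p of 0.333 for each. Weak members may have entered the common peak set through the Taf4asKO libraries, where reads in peaks were more numerous. Their part in these gaps was not tested.

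**Figure D2:**
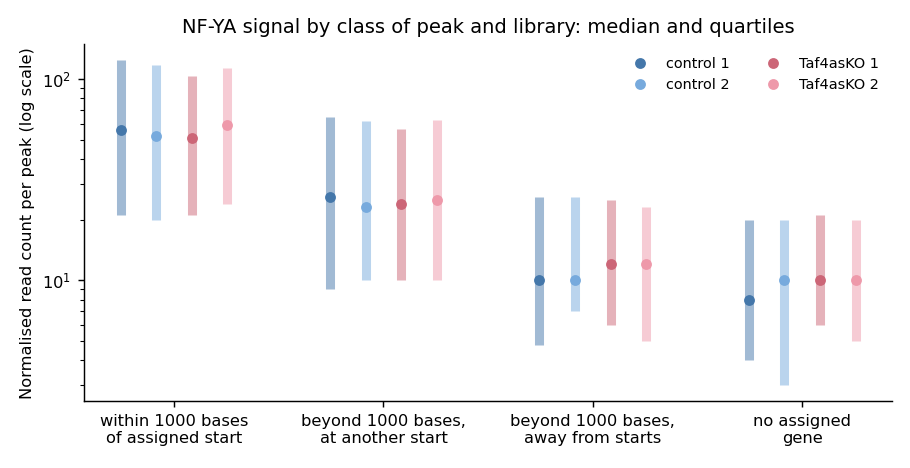
Normalised read count per peak (log axis) in each library for near-start peaks, members at another start, members away from starts and peaks with no assigned gene; points are medians and bars span the quartiles over peaks. Medians step down from 51 to 59 for near-start peaks to 23 to 26 and then 10 to 12 for the members.

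The strongest members mostly lay at another annotated start. Of the 8 members with the highest control mean, 7 had another annotated start within 426 bases of their centre, and 8 carried CCAAT. The highest lay in an intron of *Sin3a* (chr9:57075767-57076375, 4031 bases downstream of the start, ENSMUSG00000042557), which encodes the scaffold of a histone deacetylase complex, with values of 736 and 643 in the control libraries, and 546 and 574 in the Taf4asKO libraries. Its centre is 58 bases from the start of the lincRNA *2700012I20Rik*. *Sin3a* was the only gene with 4 members, and their control means ranged from 8.5 to 689.5. The second strongest of them, 1585 bases downstream of the start of *Sin3a*, stood at 342 and 313 in control, and at 283 and 282 in Taf4asKO.

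The next in rank lay at a further start as well. The *Hnrnpl* peak (chr7:28810280-28810902, gene of an RNA-binding splicing regulator) had 581 and 558 in control, compared with 422 and 434 in Taf4asKO, 94 bases from the start of the antisense RNA *Gm44702*. The *Sp2* peak (chr11:96977563-96978271, gene of a zinc finger transcription factor) had 558 in both control libraries and 415 and 436 in Taf4asKO, 206 bases from a further *Sp2* start. The *Ing1* peak (chr8:11557951-11558462, gene of a chromatin reader found with SIN3 complexes) had 518 and 512 against 321 and 393, 11 bases from a further *Ing1* start. The genotypes did not overlap in these 4 peaks, as in 47.9% of all tested peaks, and the peaks had been ranked by their control mean.

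The others of the 8 were assigned to *Rps6ka5*, *Dcun1d4*, *Ppp2r5a* and *Trappc9*, with control means of 457.0 ± 36.8, 390.0 ± 52.3, 374.0 ± 12.7 and 361.0 ± 26.9 (SD, n = 2 each). *Rps6ka5* encodes a histone kinase, *Dcun1d4* a factor of cullin neddylation, *Ppp2r5a* a regulatory subunit of protein phosphatase 2A and *Trappc9* a subunit of a vesicle tethering complex. The *Trappc9* peak, 6374 bases upstream of the gene and intergenic, was the only one of the 8 away from starts. All 8 had lower means in Taf4asKO on the deposited scale, with log2 fold changes from -0.53 to -0.15 and limma adjusted p from 0.0967 to 0.537, so that none passed the threshold. The smallest adjusted p of the 8 was 0.0283 in limma at equal library medians and 0.037 with weights by read number, so that at least 1 passed there as lower. This direction depends on the scaling, since all 8 were higher in Taf4asKO when reads were divided by the mapped reads of each library (log2 fold changes of 0.91 to 1.29, limma adjusted p of at least 0.407).

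Some genes had binding at the assigned start as well as further away. For 239 genes with 282 members the table also lists a near-start peak. The member had the lower control mean in 235 of these 282 cases (83.3%), and the near-start peak was stronger by a median ratio of 4.84. Exceptions among the 47 others, named after their values were seen, were the members at *Hnrnpl* (569.5 against 13.5 at the start, control means), *Ing1* (515 against 104.5), *Cirbp* (276.5 against 36.5) and *Mamstr* (269 against 39.5). *Mamstr* encodes a coactivator of MEF2 and *Cirbp* a cold-inducible RNA-binding protein.

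CCAAT was the most frequent of the searched motifs. It was found in either direction in the central 200 bases of 903 of 1251 members (72.2%, Wilson interval 69.6% to 74.6%), against 587 of 2502 windows of the same length centred 1000 bases to either side (23.5%, 21.8% to 25.2%). The odds ratio was 8.47 (two-sided Fisher's exact test, p adjusted over 27 motif tests = 2.33e-182). Near-start peaks carried it more often, in 88.2% (86.9% to 89.4%; odds ratio of members to near-start peaks 0.347, adjusted p = 1.62e-32). Members away from starts had CCAAT in 68.7% and members at another start in 81.3% (adjusted p = 1.11e-05, Fisher's exact test). Peaks with no assigned gene had it in 74.0%. Windows of neighbouring peaks can overlap, and p-values over sequence windows do not include differences between libraries.

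Stronger members carried CCAAT more often. The share was 55.6% (48.6% to 62.3%) among the 198 members with a mean value under 5, 73.2% at means of 10 to 20, and 94.6% (87.9% to 97.7%) among the 92 members with a mean of at least 100, where near-start peaks had 94.1%. In each library the median member with CCAAT had a value of 16, and the median member without it had 8 to 10. The box closest to the centre lay a median of 20 bases away from it, and within 50 bases in 87.3% of the members that had one. Of all members 391 (31.3%, 28.7% to 33.9%) held at least 2 boxes, against 51.0% of near-start peaks. Among the 544 pairs of neighbouring boxes in members, 87 (16%) were 28 to 33 bases apart and 67 (12.3%) 39 to 43 bases apart, whereas 39 (7.17%) were 34 to 38 bases apart. Near-start peaks had 18.9%, 12.3% and 7.91% of 1896 pairs in these ranges. The first range is wider than the others, and the shares were not tested. In the *Sin3a* sequence above, the last 3 boxes follow each other at 32 and 43 bases.

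AP-1 motifs set the members apart from the promoters. TGANTCA occurred in 384 members (30.7%, 28.2% to 33.3%), 5.52% of the flanking windows and 4.64% of the near-start peaks. The odds ratio was 9.10 to near-start peaks (two-sided Fisher's exact test, adjusted p = 2.93e-103) and 7.59 to the flanks (adjusted p = 1.82e-91). It was found in 35.8% of the members away from starts and in 17.2% of those at another start (odds ratio 2.68, adjusted p = 2.02e-10). Peaks with no assigned gene had it in 37.6%. AP-1 and CCAAT occurred together in 230 members (18.4%), AP-1 alone in 154 (12.3%), CCAAT alone in 673 (53.8%) and neither in 194 (15.5%). Members without CCAAT held AP-1 in 44.3% and members with CCAAT in 25.5% (odds ratio 2.32, adjusted p = 6.01e-10, Fisher's exact test).

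Members with AP-1 were weaker than the others in each library. Their medians were 8 and 10 in control and 11 in both Taf4asKO libraries, against 17 and 16 in control and 16 in both Taf4asKO libraries for members without it. AP-1 was present in 42.4% of the weakest members, with means below 5, and in 8.70% of the strongest, with means of at least 100. Whether NF-YA was bound to DNA through CCAAT at a peak without the motif was not tested, since CUT&RUN does not tell direct from indirect contact, and IgG signal in these peaks was not analysed here.

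Other motifs differed in frequency as well. The E-box CAGCTG was present in 24.3% of members, 10.7% of flanks and 10.5% of near-start peaks (odds ratios 2.68 and 2.74, adjusted p = 1.1e-25 and 4.21e-27, Fisher's exact test), and in 27.1% of members away from starts. Peaks with no assigned gene had an E-box in 26.5%. The GC box GGGCGG, the site of SP factors, was rarer than in near-start peaks, with 19.2% against 56.7% (odds ratio 0.181, adjusted p = 1.43e-111), and reached 37.3% at another start but 12.3% away from starts. TATAAA was found in 4.96% of members and in 10.9% of flanks (odds ratio 0.428, adjusted p = 9.33e-10). The cAMP response element TGACGTCA was rare, with 0.799% of members, 0.24% of flanks (odds ratio 3.35, adjusted p = 0.0222) and 2.32% of near-start peaks. The ETS core GGAAG occurred in 52.0% of members and 49.9% of flanks (adjusted p = 0.254), and the NFI element TTGGCA, which can overlap the reverse complement of CCAAT, in 13.2% and 9.99% (adjusted p = 0.00575).

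Base composition differed between the sets too. Members had a median GC content of 52.0% against 60.5% in near-start peaks, and a median observed-to-expected ratio of CpG of 0.23 against 0.74. The ratio was 0.51 at another start and 0.19 away from starts, close to the 0.18 of the peaks with no assigned gene. Repeat-masked bases made up 9.93% of the central windows of members on average and 23.8% of their flanks, and 57 members (4.56%) were masked over most of their window.

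**Figure D3:**
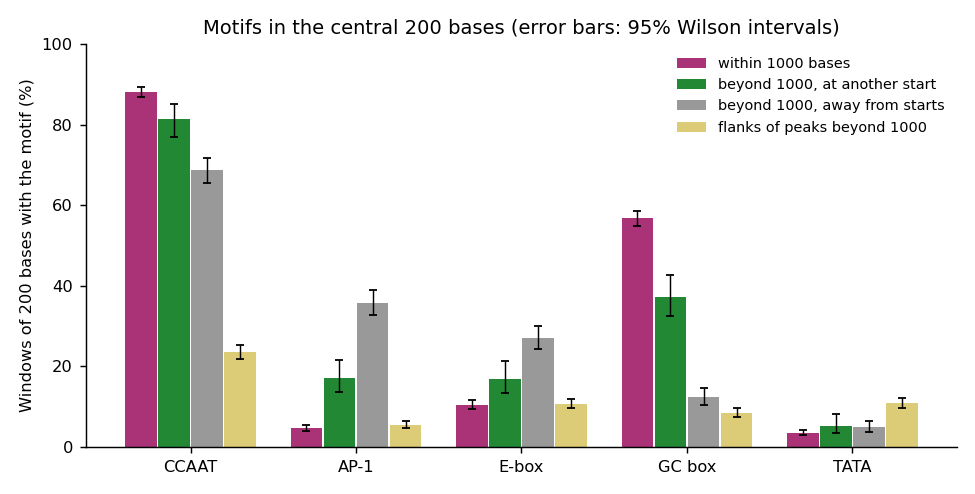
Share of windows of 200 bases (vertical axis, percent, from 0) that hold each motif, for near-start peaks, members at another start, members away from starts and the flanks of the members; error bars are 95% Wilson intervals. Of the sets shown, AP-1 and the E-box are most frequent away from starts (35.8% and 27.1%), and the GC box at near-start peaks (56.7%). Peaks with no assigned gene, not shown, had AP-1 in 37.6% and the E-box in 26.5%.

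To find out how binding at these peaks depended on TAF4A, Taf4asKO libraries were compared with control libraries. Of the 764 members with a mean value of at least 10, which could be tested, 6 (0.785%) had a limma adjusted p under 0.05, as did 0.948% of all 4746 tested peaks. Of the 6, 1 was higher in Taf4asKO (0.131% of members, against 0.337% of all tested peaks) and 5 were lower (0.654% against 0.611%). The shares of members are therefore near those of all peaks. The number of calls depended on the fit, with 17 members (3 higher, 14 lower) at equal library medians and 35 (14 higher, 21 lower) with weights by read number, where 129 and 214 of all peaks were called. It was 3 members with replicate number as a block and 0 without a minimum, where 31 and 0 of all peaks were called. When the libraries were scaled to equal totals in peaks, 8 members were called, 4 of them higher and 4 lower, where 61 of all peaks were called. The *Dnajb5* peak given below was no longer called there (limma adjusted p = 0.0536). The median log2 fold change was -0.06 in members, -0.08 in near-start peaks and -0.04 in all tested peaks, and 682 members (89.3%) changed by less than 1 on this scale. Values of the genotypes did not overlap in 379 members (49.6%), where 47.9% of all tested peaks did not overlap. Members with a mean under 10 were not tested and are described by their values alone.

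Of the 6 called members, the one with the largest fold change was in the targeted gene itself. In a coding exon of *Taf4* (chr2:179975417-179975495, ENSMUSG00000039117) a peak of 79 bases, 1190 bases downstream of the start, had 99 and 117 in control versus 13 and 18 in Taf4asKO. This amounts to -2.74 on the log2 scale (limma, SE 0.25, adjusted p = 0.00112). It has an E-box but no CCAAT in its central 200 bases, a window that reaches beyond the peak. It is 1 of 10 calls of the whole table in exons of *Taf4* or *Tbp*, which were all lower in Taf4asKO and of which 1 contained CCAAT. Another *Taf4* member, 3245 bases upstream with an AP-1 motif, was below the minimum of the test. It had 8 and 10 in control and 5 in both Taf4asKO libraries.

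Introns of genes of signalling and growth held the next largest decreases. *Mfng* encodes a glycosyltransferase that modifies Notch receptors, and its peak (chr15:78763680-78763878, 9696 bases downstream of the start, ENSMUSG00000018169), with 3 CCAAT boxes, had 54 and 72 in control versus 11 and 10 in Taf4asKO (limma log2 fold change -2.46 with SE 0.29, adjusted p = 0.00463). *Mycl* encodes a MYC family factor, and its peak (chr4:122998676-122998791, ENSMUSG00000028654), 146 bases from a further *Mycl* start and with 2 boxes, had 26 and 36 in control versus 4 and 5 in Taf4asKO (-2.53, SE 0.42, limma adjusted p = 0.0316). Its Taf4asKO mean of 4.5 lies below the minimum of the test, so that it was tested through its control values.

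The other calls were weaker. The peak 4782 bases upstream of *Ccne1* (chr7:38112030-38112601, ENSMUSG00000002068), the gene of cyclin E1, which drives entry into S phase, had 182 and 117 in control versus 62 and 65 in Taf4asKO (limma log2 fold change -1.19 with SE 0.22, adjusted p = 0.0473). At *Dnajb5* (chr4:42953549-42954011, ENSMUSG00000036052), the gene of an HSP40 co-chaperone, an intronic peak without CCAAT, 686 bases from a further *Dnajb5* start, had 86 and 65 against 33 and 22 (-1.44, SE 0.27, limma adjusted p = 0.0473). The single increase lay 8672 bases upstream of *Hdac2* (chr10:36965717-36966027, ENSMUSG00000019777), a histone deacetylase gene, with 9 and 10 in control versus 35 and 32 in Taf4asKO (1.72, SE 0.33, limma adjusted p = 0.0473). The control values of this peak rest on about 8.6 and 3.1 reads. Its control mean of 9.5 lies below the minimum of 10, so that it was tested through its Taf4asKO values.

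All 6 calls lost significance when any of the 4 libraries was left out, which leaves 1 library in a group, although none changed direction then. When reads were divided by the mapped reads of each library, which shifts all peaks upwards in Taf4asKO (median log2 fold change of all tested peaks 1.34), 0 members were called by limma, with 70 at an unadjusted p under 0.05, and the *Ccne1* peak was 0.24 higher rather than lower. With replicate number as a block, a pairing that the labels do not give, *Mycl*, *Ccne1* and *Hdac2* were no longer called (limma adjusted p = 0.0574, 0.0574 and 0.0894).

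**Figure D4:**
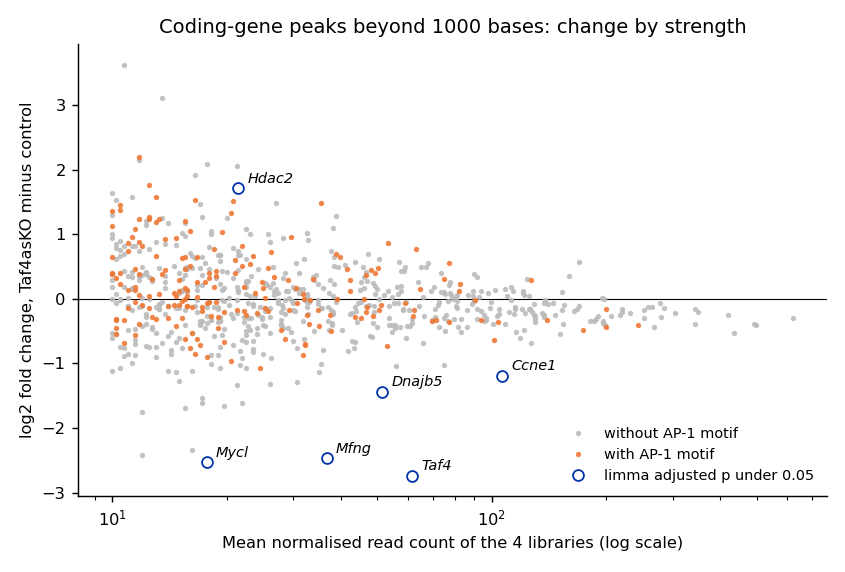
Log2 fold change, Taf4asKO minus control, of the 764 tested members (vertical axis) against their mean normalised read count (log axis); orange points hold an AP-1 motif and circles mark the 6 members with a limma adjusted p under 0.05. Of the members with a mean of at least 100, 83.7% lie below 0 on this deposited scale, against 0 of the 92 with division by mapped reads, and the spread widens towards weak peaks.

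On the deposited scale the direction of the differences varied with strength. Of the 92 members with a mean value of at least 100, 77 (83.7%) were lower in Taf4asKO, with a median log2 fold change of -0.22. Of the 302 members with means of 10 to 20, 141 (46.7%) were lower and the median was 0.08. Near-start peaks had medians of -0.22 and 0.22 in the same ranges. The direction depended on the scaling, as 68.5% of the 92 and 35.1% of the 302 were lower at equal totals in peaks, and 0 of the 92 and 8 of the 302 with division by mapped reads. The median of the 92 lay below that of the 302 in each case, with -0.07 against 0.21 and 1.22 against 1.39. Reads in peaks were fewer in control, and their part in this pattern was not tested.

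By fold change alone, 39 members were gained and 36 lost in Taf4asKO, that is, their group means differed more than 2-fold at a mean value above 10. These numbers depended on the scaling and on the control libraries, with 67 gained and 22 lost at equal totals in peaks, 70 and 38 without control replicate 1, and 61 and 41 without control replicate 2. The 39 and 36 were 5.21% and 4.81% of the 748 members above that mean, against 4.29% and 3.13% of all peaks and 1.55% and 0.688% of near-start peaks. Most were weak, and the median gained member held about 7.66 and 2.15 reads in the control libraries. Of the 39 and 36, 32 gained and 31 lost members were away from starts.

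The gained and the lost members differed in the motifs they carried, an observation made after their values were seen. Of the 39 gained members 16 (41.0%) held AP-1 and 3 (7.69%) an E-box. Of the 36 lost members 3 (8.33%) held AP-1 and 18 (50%) an E-box. Among all members above the same mean, the shares were 25% for AP-1 and 23.8% for the E-box. The gained members were weaker than these, with a median mean value of 15.5 against 25.8, and among all members with means of 10 to 20 the share with AP-1 was 34.8%. When both replicates of a genotype had to exceed both of the other more than 2-fold, 8 of 15 gained and 0 of 9 lost members held AP-1, and 0 of 15 gained and 4 of 9 lost members an E-box. No test is given, since these sets were formed from the values. The mean above 10 was taken over both genotypes, so that weak gained members could enter through Taf4asKO alone, and weak lost members through control alone.

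All 764 tested members, which include the gained and lost ones, were then split by motif, so that the values are no independent observation. The 192 members with AP-1 had a median log2 fold change of 0.08, and the 572 without it -0.10. The 180 members with an E-box had -0.22, and the 584 without it -0.02. Over all 1251 members, tested or not, the median log2 signal of the 384 with AP-1 lay below that of the others by 1.00 and 0.63 in control and by 0.50 in both Taf4asKO libraries. This includes members below the minimum, which may have entered the common peak set through the Taf4asKO libraries, where reads in peaks were more numerous. Their part in this difference was not tested, and the p-values that follow do not allow for it. With 2 libraries per genotype an exact permutation test gave p = 0.333 for AP-1 and for the E-box, the smallest possible. The difference of the medians between members with and without the motif was 0.09 to 0.23 for AP-1 and -0.27 to -0.15 for the E-box over the fits tried, including those without each library in turn.

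Of the list of myogenic and stem cell genes, members at *Cdh15*, *Mymk* and *Myod1* were among those lost by fold, but none of them passed the test. They are named after their values were seen. *Cdh15* encodes M-cadherin, an adhesion molecule of MuSCs, and its intronic peak (chr8:122851629-122851859), which also lies in *Gm20388*, had 61 and 36 in control versus 27 and 16 in Taf4asKO (limma log2 fold change -1.13 with SE 0.34, adjusted p = 0.142). *Mymk* encodes the fusion factor myomaker, and its intronic peak (chr2:27069801-27069963), with 2 CCAAT boxes and E-boxes, had 23 and 26 against 9 and 15 (-1.01, SE 0.37, limma adjusted p = 0.20). *Myod1* encodes the myogenic factor MYOD1, and a peak 4240 bases from its start (chr7:46380601-46380827) had 15 and 29 against 16 and 5, where the genotypes overlapped (-1.12, SE 0.54, limma adjusted p = 0.310).

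A member at another gene of this list was among those gained by fold. The peak 1998 bases upstream of *Mef2d* (chr3:88140232-88140516), whose product activates muscle genes, had 24 and 13 in control versus 43 and 62 in Taf4asKO (1.49, SE 0.34, limma adjusted p = 0.0819).

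**Figure D5:**
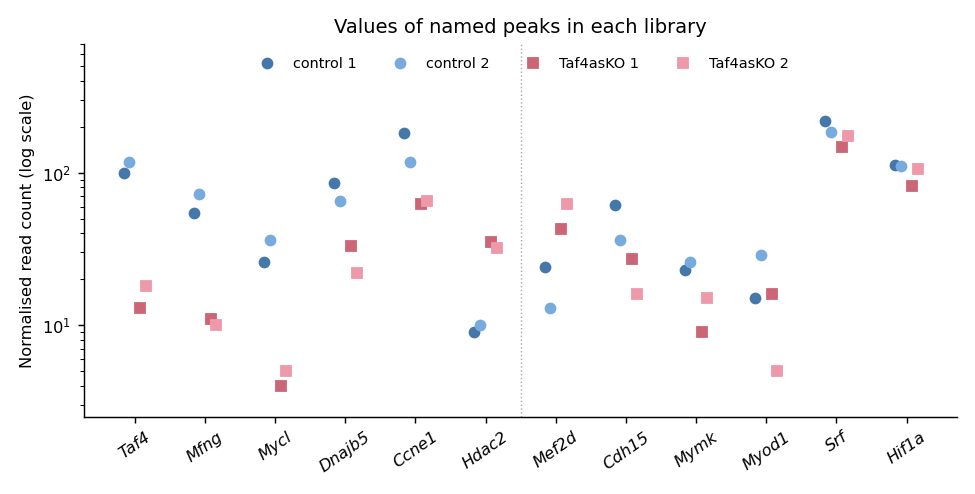
Normalised read count in each library (log axis) of the 6 called members, left of the dotted line, and of 6 further members named in the text; circles are control and squares Taf4asKO libraries, 1 point per library. The genotypes are farthest apart at *Taf4*, *Mfng* and *Mycl*, and overlap at *Myod1*. Most of the 12 peaks were chosen for their difference, and 47.9% of all tested peaks do not overlap.

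Groups of genes were examined with lists of 248 genes in 8 categories, of which 40 genes had 47 members. Of these 34 were tested, 0 were higher and 4 lower by limma at an adjusted p under 0.05, beside 0.337% and 0.611% of all tested peaks, and 27 of 34 had a log2 fold change below 0, as did 53.8% of all tested peaks and 55.6% of all tested members. At equal totals in peaks 26 of the 34 were below 0, beside 40.7% of all tested peaks, and with division by mapped reads 3 of the 34, beside 1.07%. The lists had been written with earlier results of these data known, so the counts are descriptions. The 4 calls are the peaks at *Taf4*, *Mfng*, *Mycl* and *Ccne1* given above.

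Of 30 myogenic and stem cell genes 6 had members, among them *Cdh15* with 2, *Mymk*, *Myod1*, *Mef2d* and *Sdc4*. Of the 7 peaks 5 were tested and 0 were called by limma, beside 0.948% of all tested peaks. Their median log2 fold change was -1.01, beside -0.04 over all tested peaks, and 0.34, beside 1.34, with division by mapped reads. CCAAT was present in 6 of the 7 peaks.

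The TFIID and NF-Y genes had 3 members, the 2 at *Taf4* and 1 at *Nfyc*. The *Nfyc* peak (chr4:120825012-120825321), 6405 bases downstream of the start and 517 bases from a further start, had 62 and 68 in control versus 62 and 71 in Taf4asKO, which overlap. The 9 genes of the NSL complex, which contains the acetyltransferase MOF, had 2 members. At *Phf20*, the gene of a methyl-lysine reader, a peak 4268 bases upstream had 17 and 20 in control versus 12 and 8 in Taf4asKO (limma log2 fold change -0.85, adjusted p = 0.299). At *Kansl2*, whose product is a subunit of the complex, a peak 7063 bases downstream had 6 and 3 against 6 and 7 and was below the minimum.

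Of 32 genes of heterochromatin and the nuclear lamina 6 had 7 members, of which 6 were tested and 0 called by limma, beside 0.948% of all tested peaks. Their median log2 fold change was -0.19, beside -0.04 over all tested peaks, and 1.22, beside 1.34, with division by mapped reads. *Lmna* encodes lamin A and C and has 2 members close to each other, at a further start of the gene. The first (chr3:88503226-88503491), without CCAAT and with AP-1, had 94 and 65 in control versus 86 and 84 in Taf4asKO. The second (chr3:88503611-88503802), with both motifs, had 62 and 39 in control versus 41 and 39 in Taf4asKO. The genotypes overlapped in both. The peak at *Kmt5b*, the gene of an H4K20 methyltransferase, had 74 and 55 against 53 and 60, and that at *Prmt1*, the gene of an arginine methyltransferase, 64 and 42 against 46 and 44, which overlap too.

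Fewer cell cycle genes had members than near-start peaks, as over the whole table, where 1083 gene IDs had members and 2359 had near-start peaks. Of 42 genes 20 had near-start peaks and 3 had members, namely *Ccne1*, *E2f2* and *Bub1b*. The difference was not tested. The *E2f2* peak, 130 bases from a further start of this gene of a cell cycle transcription factor, had 54 and 46 in control versus 70 and 65 in Taf4asKO (limma log2 fold change 0.43, adjusted p = 0.309). The peak upstream of *Bub1b*, a spindle checkpoint gene, was below the minimum with 2 and 3 in control versus 9 and 8 in Taf4asKO, although it holds 4 CCAAT boxes.

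The Notch, Wnt and TGF-beta genes had 8 members at 7 of 44 genes, all of them away from starts. Of the 7 tested 1 was called, the *Mfng* peak, beside 0.948% of all tested peaks, and 6 had a log2 fold change below 0, beside 53.8%. With division by mapped reads 1 of the 7 was below 0. Upstream of *Smad6*, an inhibitor of BMP signalling, a peak had 100 and 121 in control versus 90 and 108 in Taf4asKO, which overlap. The *Id3* peak, at the gene of an inhibitor of myogenic E-box factors, had 50 and 36 against 28 and 38. *Heyl*, a Notch target gene, had 2 members without CCAAT, with 17 and 26 against 13 and 12, and with 28 and 26 against 19 and 17, neither of which passed the threshold (limma adjusted p = 0.336 and 0.341). The tested exception was *Smad7*, an inhibitor of TGF-beta signalling, where a peak 3573 bases upstream had 11 and 3 in control versus 29 and 28 in Taf4asKO (2.09, SE 0.52, limma adjusted p = 0.0979) and the control values rest on about 10.5 and 0.9 reads. Its control mean of 7.0 lies below the minimum, so that it was tested through its Taf4asKO values.

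Growth and stress factors had 9 members at 8 of 35 genes, of which 6 were tested, 1 was called, the *Mycl* peak, and 6 had a log2 fold change below 0, beside 0.948% and 53.8% of all tested peaks. With division by mapped reads 1 of the 6 was below 0. The strongest was in an intron of *Srf* (chr17:46552791-46553356), the serum response factor, with 220 and 186 in control versus 148 and 173 in Taf4asKO (limma log2 fold change -0.34, adjusted p = 0.299). The *Fosb* peak in an exon (chr7:19308005-19308769), the widest of all members with 765 bases, had 164 and 186 against 127 and 141 (-0.38, limma adjusted p = 0.242). Neither holds CCAAT in its centre. The *Hif1a* peak, 199 bases from a further start of the gene of the hypoxia factor, had 113 and 111 against 82 and 106 (-0.26, limma adjusted p = 0.473). None of these was called, and their genotypes did not overlap, as in 47.9% of all tested peaks.

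Matrix and adhesion genes had 8 members at 6 of 36 genes, again all away from starts, of which 5 were tested and 0 called by limma, beside 0.948% of all tested peaks. Their median log2 fold change was -0.50, beside -0.04 over all tested peaks, and 0.86, beside 1.34, with division by mapped reads. The strongest, in an intron of *Col5a1* (chr2:27888882-27889125), a fibrillar collagen gene, had 48 and 59 in control versus 42 and 46 in Taf4asKO. *Lama5*, a laminin gene, had 2 members, with 27 and 26 against 17 and 20 upstream and 21 and 26 against 9 and 17 in an intron (limma adjusted p = 0.391 and 0.281). At *Timp2*, the gene of a metalloprotease inhibitor, a weak peak with AP-1 had 15 and 10 in control versus 3 and 2 in Taf4asKO, and was below the minimum.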

How the data were processed

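The 2 control and 2 Taf4asKO libraries of NF-YA CUT&RUN were used, and the members and gene lists were chosen with earlier results of these data known. Per the submitters' processing notes, Trimmomatic 0.39, STAR 2.7.11a, Picard 3.1.1, featureCounts and DESeq2 1.36.0 were used on mm10. Peaks were called against IgG, unified over samples and assigned to the nearest gene start. The deposited values are DESeq2-normalised counts rounded to whole numbers by the authors and were treated as a score, without a count model. Such values are relative, so that a change common to all peaks is not visible. What 1 read is worth was read off the steps between values (1.0445, 3.2614, 0.4315 and 0.681), where Taf4asKO replicate 1 allows a second step as well.

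Peaks with a mean of at least 10 (4746 of 7196) entered limma 3.58.1 with a variance trend on log2(value + 1), adjusted by Benjamini-Hochberg over all of them; the pseudocount understates the change of weak peaks. On 7196 simulated peaks of this comparison, 112 of 146 tested peaks with a log2 change of 2 in size were called. Intervals are 95% Wilson intervals and cover counting error only. Transcripts came from GENCODE M21 (GRCm38), where 1248 of 1251 member gene IDs were found, and sequence from the RefSeq copy of GRCm38. Motifs were searched as letters on both strands in the central 200 bases.

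Named were the 8 members with the highest control mean, all called members, those at TFIID, NF-Y and NSL genes and the 3 strongest of each other list. *Smad7*, *Heyl*, *Timp2*, *Sin3a* at 1585 bases, *Mef2d* and the second *Lmna* peak were added after their values were seen. The full searched windows are shown in place of shorter ones, and windows in annotated UTRs were left out. IgG libraries were not analysed here. Alternatives were scaling, minimum, pseudocount, replicate block, weights by read number, threshold and each library left out.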

Additional observations from a re-analysis of the deposited data

How the results depend on the processing

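The number of called members, 6, depended on the fit. It was 17 with libraries scaled to equal medians (3 higher, 14 lower), 35 with weights by read number (14 higher, 21 lower) and 23 at a threshold of 0.1 (8 higher, 15 lower), each holding the same 6. Of all peaks, 129, 214 and 131 were called in these settings, beside 45 in the main fit. It was 0 without a minimum (173 at an unadjusted p under 0.05, limma), which tests more and weaker peaks, and 0 with division by mapped reads (70 at an unadjusted p under 0.05), where the *Ccne1* peak reversed to 0.24. Without each library in turn it was 0 to 0, with adjusted p of the 6 from 0.187 to 0.739. The deviations of replicate 1 in control and Taf4asKO had r = -0.10 over 764 peaks. With 2 replicates per genotype this cannot show whether replicate numbers pair the libraries. With the replicate block 3 members were called, without *Mycl*, *Ccne1* and *Hdac2*, where 31 of all peaks were called. The genotype difference of the signal gap stayed at -0.08 with the block. Gained members numbered 67 with equal totals, 15 where both replicates had to pass, 0 above a mean of 50 and 31 to 70 without each library, and lost members 22, 9, 5 and 36 to 49. The signal gap, 1.93, was 1.65 with means, 2.04 for members from 2000 bases and 1.90 to 1.98 without each library. CCAAT was found in 61.5% of members in the central 100 bases and in 79.3% of those with a mean of at least 10. Another start was near 19.9% within 500 bases and near 18% with coding transcripts only. In settings added after the data were seen, AP-1 was found in 26.0% over the whole peak and in 25.1% at a mean of at least 10. Other causes of these shifts were not tested. Control replicate 2 had the fewest reads in peaks, and 103 members were at 0 in it.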

Other observations

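Some genes had several members. Of the 22 genes with 3, *Kdm6b*, the gene of an H3K27 demethylase, had the highest control mean among those with no member at another start, 226.5, and *Ncam1*, the gene of a neural cell adhesion molecule that muscle cells also make, had members with control means between 19.5 and 29. *Per1*, a clock gene, had members from 1843 to 7314 bases downstream of its start, with control means between 4.0 and 102.5. These genes were named after their values were seen.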
